A study of Mus musculus with 6 samples.

Results

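The D-type cyclins Ccnd1, Ccnd2 and Ccnd3, their kinases Cdk4 and Cdk6, and 5 genes of their inhibitors (Cdkn1a, Cdkn1b, Cdkn2a, Cdkn2b and Cdkn2c) were followed in whole mouse kidneys taken at postnatal day 3. The genes were taken by symbol, and each of the 10 matched 1 of the 23669 rows of the deposited table. NICD2 below stands for R26NICD2/+Kspcre kidneys, with 3 samples, which were set against 3 wild type samples (WT). The R26NICD2 allele places the intracellular domain of Notch2, the active fragment of the receptor, at the Rosa26 locus. Kspcre expresses Cre recombinase from the Ksp-cadherin (Cdh16) promoter, a promoter of tubule epithelium, so RNA of cells without recombination is part of every NICD2 library. The labels give no strain, sex or litter, and do not say whether the wild type animals carried either allele alone. Whether replicates are separate animals is not labelled, so p-values cover the spread of these libraries alone, some of which may be technical.

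D cyclins bind Cdk4 or Cdk6, and the complexes phosphorylate the retinoblastoma protein and its relatives. This releases E2F transcription factors, which switch on genes of DNA replication and so carry a cell from G1 into S phase. INK4 inhibitors, encoded by Cdkn2a, Cdkn2b and Cdkn2c, bind Cdk4 and Cdk6 and keep cyclin D off them. Cip/Kip inhibitors, encoded by Cdkn1a (p21) and Cdkn1b (p27), bind cyclin-CDK complexes and block Cdk2 above all. In the newborn mouse kidney nephrons are still forming, so dividing and maturing cells are present side by side.

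Values are FPKM, which corrects fragment counts for transcript length and library depth, given for replicates 1, 2 and 3 of a group in that order. Differences are log2 fold changes of FPKM + 1, NICD2 minus WT, ± SE, from a limma fit over all 13765 genes that reached 1 FPKM in at least 3 libraries. A gene was called at a Benjamini-Hochberg adjusted p under 0.05. Since FPKM is scaled to length, levels of different genes can be set side by side. In whole kidneys, fewer cells of a type and less RNA per cell cannot be told apart.

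The libraries were alike in depth, which was estimated at 15950000 to 16900000 fragments each, and log2(FPKM + 1) correlated at 0.985 to 0.990 within groups and 0.968 to 0.980 between groups across genes. The row named for human Notch2, taken here as the transgene, held 75.4, 79.6 and 60.2 FPKM in NICD2 and 0, 0.03 and 0.03 FPKM in WT. Mouse Notch2 held 16.3, 17.8 and 17.8 FPKM in NICD2 and 15.3, 18.0 and 17.7 FPKM in WT. All 10 kidney-defining markers, among them Cdh16, Pax2 and Umod, were present. Together they held 1105 to 1200 FPKM in NICD2 and 1239 to 1320 FPKM in WT. Of them 1 was called higher and 6 lower, where 4.93% of all genes tested were called higher and 3.86% lower. NICD2 replicate 3 was listed at 0 for 4 Y-linked genes that summed to 62.4 to 77.1 FPKM in the other libraries. It thus showed no male RNA, so it is not a technical repeat of another library. Sex was therefore not the same across the NICD2 samples, and no WT library lacked these genes. Interferon response genes summed to 115 FPKM in NICD2 replicate 1 and to 41.5 to 53.3 FPKM elsewhere. Adrenal genes summed to 2.16 FPKM in NICD2 replicate 1 and 5.27 FPKM in WT replicate 3, and to 198 to 209 FPKM in the remaining libraries. Erythroid genes summed to 6100 FPKM in WT replicate 1 and to 2281 to 3708 FPKM elsewhere. None of 5 erythroid, 10 adrenal and 9 interferon genes tested was called by limma, with 2 interferon genes higher at an unadjusted p under 0.05, and what these library differences contribute was not tested.

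Of the 10 genes, limma called 4 higher in NICD2, namely Ccnd1, Cdk6, Cdkn2a and Cdkn2b, and none lower. Over all genes tested, 8.79% were called, 4.93% higher and 3.86% lower. The members were chosen with earlier results of these data known, so these counts describe them and are no test. At an unadjusted p under 0.05 there were 5 members higher and 1 lower, where 12.4% of all genes were higher and 12.6% lower. The groups did not overlap for 6 of the 10, 5 of them higher and 1 lower in NICD2, where this was so for 15.0% of all genes in the higher and 15.5% in the lower direction. The median log2 fold change of the 10 genes was 0.19, against -0.01 over all genes tested. Cdkn2a reached the level filter only through the NICD2 libraries, and Cdkn2b had under 1 FPKM in WT replicates 2 and 3. Part of these counts and of the median is therefore built into their being tested. With a filter at 5 FPKM, Ccnd1 and Cdk6 were the 2 members called, where 5.45% of all genes were called higher. The same 4 genes were called whichever library was left out, and Cdkn2c joined them without WT replicate 1. Those fits kept the genes that had passed the filter on all 6 libraries. With an NICD2 library left out, Cdkn2a would not reach 1 FPKM in 3 libraries, so its being tested there was carried over.

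**Figure D1:**
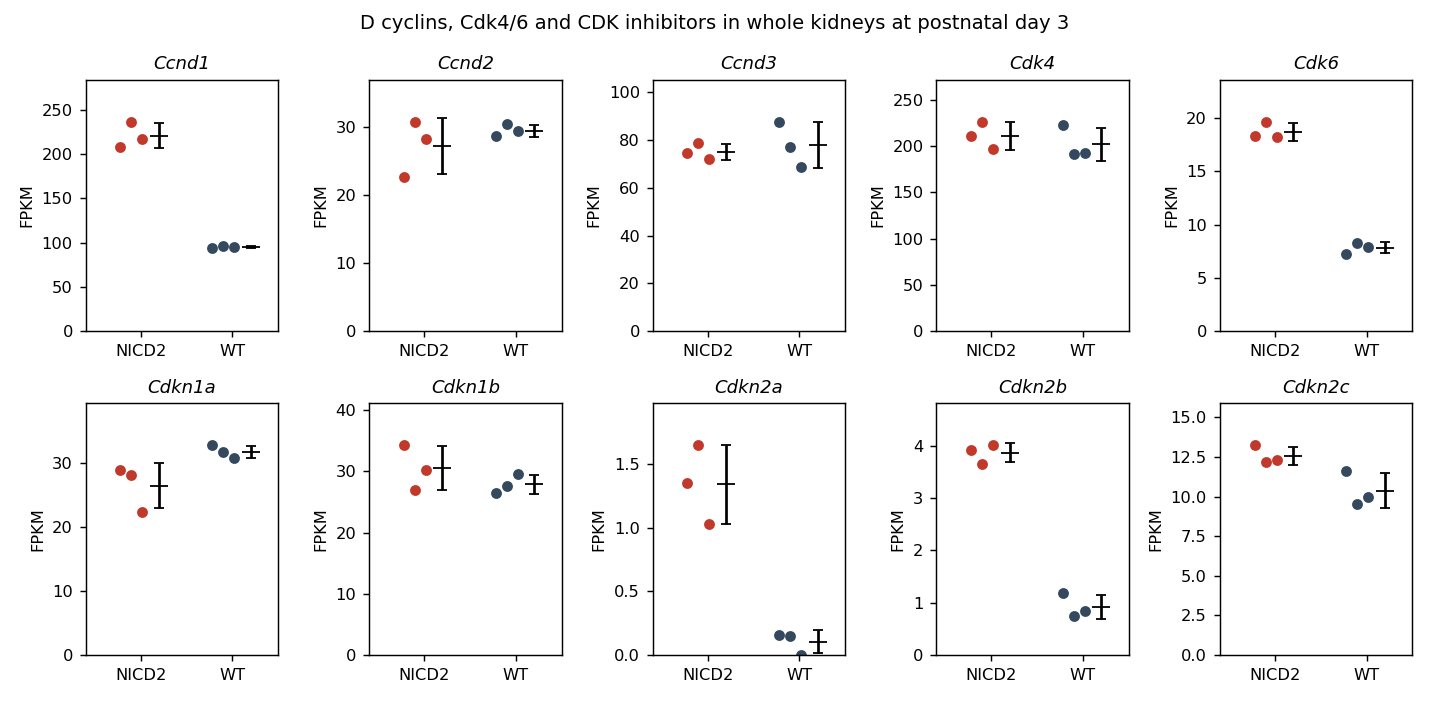
FPKM of each gene in every library (points, replicates 1 to 3 from left to right), with the mean and SD of the 3 samples beside them, NICD2 left of WT. Ccnd1, Cdk6, Cdkn2a, Cdkn2b and, by less, Cdkn2c lie above every WT library in all 3 NICD2 libraries, and Cdkn1a lies below in all 3.

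Among the D cyclins, only Ccnd1 was called. Ccnd1 encodes cyclin D1 (gene 12443, GRCm38 chromosome 7, 144929931 to 144939937, minus strand). It held 208, 237 and 217 FPKM in NICD2, against 94.4, 95.9 and 94.8 FPKM in WT. Every NICD2 library was thus far above every WT library, and the WT libraries differed from each other by little, with a coefficient of variation of 0.848% against 6.53% in NICD2. The log2 fold change was 1.21 ± 0.07 (limma, adjusted p = 2.17e-05), and the ratio of mean FPKM was 2.32. By the size of its log2 fold change it ranked 106 from the top of the 13765 genes, and by mean level it stood above 97.3% of them. Its 3′ end overlaps that of Oraov1 on the opposite strand, whose log2 fold change was 0.15 ± 0.10 (limma, adjusted p = 0.405).

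Cyclin D2, from Ccnd2 (gene 12444, chromosome 6, 127125162 to 127151062), held 22.6, 30.8 and 28.2 FPKM in NICD2 and 28.6, 30.4 and 29.4 FPKM in WT. The groups overlapped, with NICD2 replicate 1 the lowest of the libraries. Its log2 fold change of -0.12 had a 95% interval of -0.36 to 0.12 (limma, adjusted p = 0.521). Cyclin D3, from Ccnd3 (gene 12445, chromosome 17, 47504954 to 47599689), held 74.5, 78.8 and 72.2 FPKM in NICD2 and 87.7, 77.0 and 68.6 FPKM in WT. Here the WT libraries spanned the NICD2 ones, and the interval was -0.25 to 0.16 (limma, adjusted p = 0.814). Ccnd3 overlaps Bysl on the opposite strand, and reads of the pair cannot be told apart without strand. Neither interval reaches the lower bound of 1.06 for Ccnd1.

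The makeup of the family moved with Ccnd1. Summed over the 3 genes, D-cyclin FPKM was 306, 346 and 318 in NICD2 and 211, 203 and 193 in WT. Ccnd1 made up 68.2%, 68.4% and 68.4% of that sum in NICD2, against 44.8%, 47.2% and 49.2% in WT. Ccnd3 took 22.7% to 24.4% in NICD2 and 35.6% to 41.6% in WT. For Ccnd2 the range was 7.40% to 8.89% in NICD2 and 13.6% to 15.2% in WT. These shares describe transcripts of whole kidneys and were given no test.

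**Figure D2:**
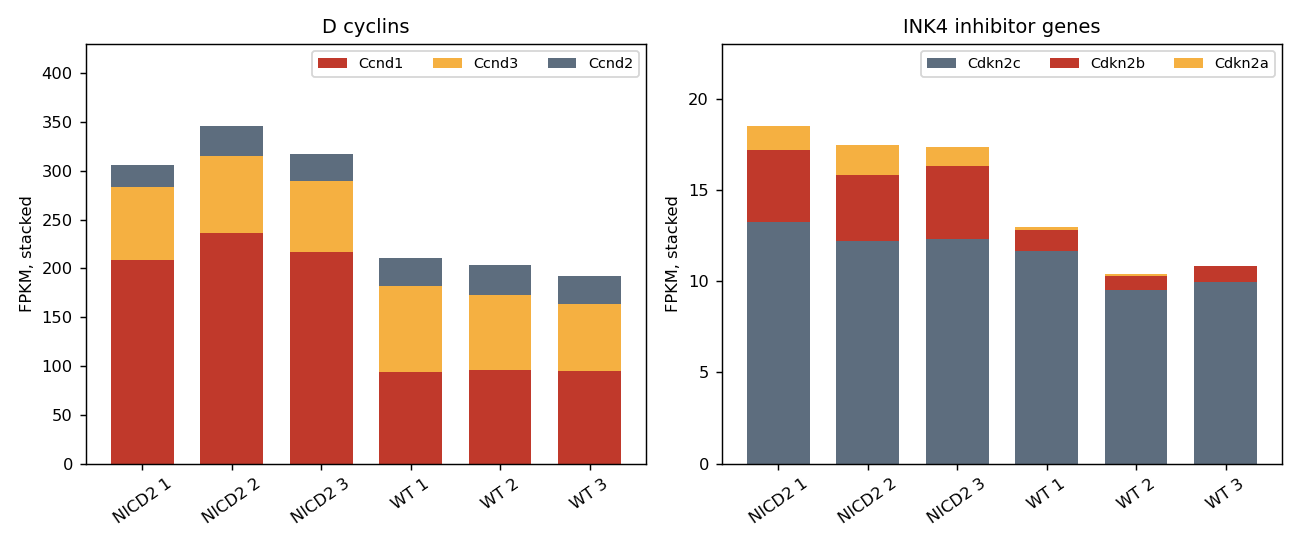
FPKM per library, stacked by gene, for the 3 D cyclins (left) and the 3 INK4 genes (right), with the NICD2 libraries left of the WT libraries. The Ccnd1 part of the D-cyclin bars is 68.2% to 68.4% in NICD2 and 44.8% to 49.2% in WT, and the Cdkn2b and Cdkn2a parts of the INK4 bars are larger in NICD2.

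Of the kinases, Cdk6 rose and Cdk4 was not called. Cdk6 (gene 12571, chromosome 5, 3341471 to 3531013, plus strand) held 18.3, 19.7 and 18.2 FPKM in NICD2, against 7.28, 8.30 and 7.88 FPKM in WT. The groups stood well apart. The log2 fold change was 1.16 ± 0.07 (limma, adjusted p = 4.30e-05) and the ratio of mean FPKM was 2.39. Cdk4 (gene 12567, chromosome 10, 127063535 to 127067288) held 211, 226 and 196 FPKM in NICD2 and 222, 191 and 192 FPKM in WT. These groups overlapped, and the 95% interval of its log2 fold change was -0.13 to 0.26 (limma, adjusted p = 0.680). Cdk4 was the more abundant of the pair in every library. Cdk6 made up 7.97% to 8.48% of the summed Cdk4 and Cdk6 FPKM in NICD2 and 3.17% to 4.17% in WT, while the sum itself was 214 to 246 FPKM in NICD2 and 199 to 230 FPKM in WT.

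Among the INK4 inhibitors, Cdkn2b and Cdkn2a rose, both at low levels. They are neighbours on the minus strand of chromosome 4, with Cdkn2b (gene 12579) at 89306289 to 89311032 and Cdkn2a (gene 12578) at 89274473 to 89294619. Cdkn2b, which encodes p15INK4b, held 3.93, 3.66 and 4.01 FPKM in NICD2, against 1.18, 0.75 and 0.84 FPKM in WT. In estimated fragments this was 85, 77 and 87 in NICD2 and 24, 16 and 18 in WT, and the groups were well separated. The log2 fold change was 1.35 ± 0.11 (limma, adjusted p = 2.15e-04). The ratio of mean FPKM was 4.19, which the added 1 FPKM compresses on the log2 scale.

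Cdkn2a encodes the INK4 inhibitor p16INK4a and, from another first exon and reading frame, p19ARF, which stabilises p53. The table has 1 value for both transcripts, so they cannot be told apart here. Cdkn2a held 1.35, 1.65 and 1.03 FPKM in NICD2 and 0.16, 0.15 and 0 FPKM in WT. The estimated fragments were 19, 22 and 14 in NICD2 and 2, 2 and 0 in WT, so it was hardly detected in WT kidneys at this depth. Its log2 fold change was 1.08 ± 0.14 (limma, adjusted p = 0.00269), and 2.93 when 0.1 FPKM was added in place of 1. The order of the pair turned with that choice, since Cdkn2b was then at 1.98. Cdkn2a reached the level filter only through the NICD2 libraries, and Cdkn2b had under 1 FPKM in WT replicates 2 and 3, so part of their difference is built into their being tested.

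Cdkn2c, the gene of p18INK4c (gene 12580, chromosome 4, 109660876 to 109666756), held 13.2, 12.2 and 12.3 FPKM in NICD2 and 11.6, 9.52 and 9.97 FPKM in WT. The groups did not overlap, but NICD2 replicate 2 and WT replicate 1 were close. The log2 fold change was 0.26 ± 0.08 and was not called (limma, adjusted p = 0.0985). It passed only when WT replicate 1 was left out, with an adjusted p of 0.0363 in the limma fit, where adjusted p over all alternatives ran from 0.0363 to 0.276. Summed FPKM of the 3 INK4 genes was 17.3 to 18.5 in NICD2 and 10.4 to 13.0 in WT. Cdkn2c held 69.6% to 71.5% of it in NICD2 and 89.7% to 92.2% in WT.

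The Cip/Kip genes were not called. Cdkn1a (gene 12575, chromosome 17, 29090979 to 29100722) held 28.9, 28.1 and 22.4 FPKM in NICD2 and 32.8, 31.7 and 30.8 FPKM in WT. Every NICD2 library lay below every WT library, with NICD2 replicate 3 the lowest. The log2 fold change was -0.26 ± 0.10, with a 95% interval of -0.48 to -0.05 and an unadjusted p of 0.0235 in limma (adjusted p = 0.128). Without NICD2 replicate 3 it was -0.15 (limma, adjusted p = 0.263). Cdkn1b (gene 12576, chromosome 6, 134920401 to 134925525) held 34.2, 27.02 and 30.2 FPKM in NICD2 and 26.5, 27.6 and 29.5 FPKM in WT. These groups overlapped, and the interval was -0.08 to 0.33 (limma, adjusted p = 0.453). Together the pair held 52.6 to 63.2 FPKM in NICD2 and 59.3 to 60.4 FPKM in WT.

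**Figure D3:**
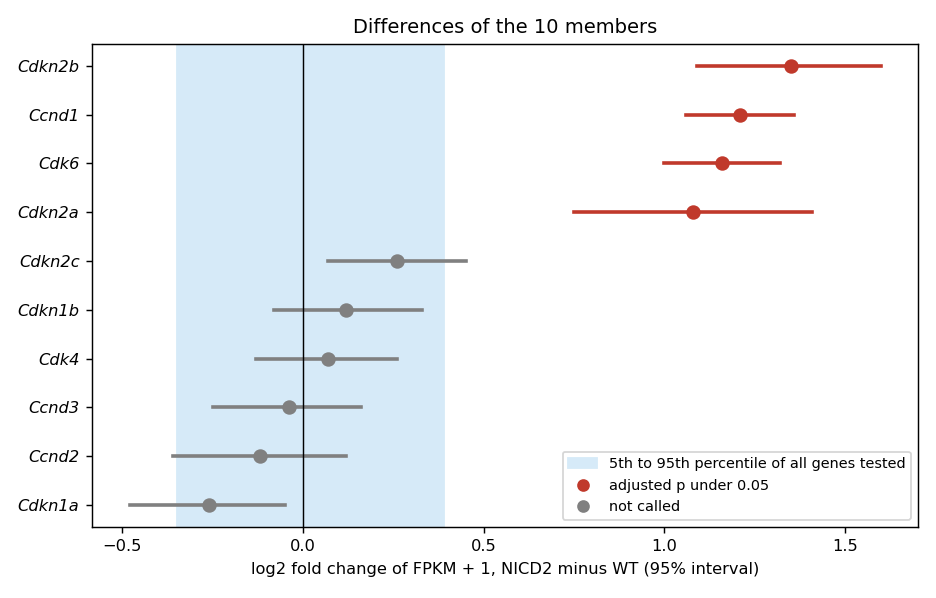
Log2 fold change of FPKM + 1, NICD2 minus WT, with its 95% interval for each of the 10 genes, over a band from the 5th to the 95th percentile of all genes tested. Cdkn2b, Ccnd1, Cdk6 and Cdkn2a lie at 1.08 to 1.35, and the other 6 lie between -0.26 and 0.26.

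By level, Cdk4 led in WT with a mean of 202 FPKM, followed by Ccnd1 at 95 and Ccnd3 at 77.8 FPKM. In NICD2, Ccnd1 at 221 and Cdk4 at 211 FPKM came first, and their ranges overlapped. Ccnd3 was next at 75.2 FPKM. Cdkn1b, Ccnd2 and Cdkn1a followed in NICD2 at 30.5, 27.2 and 26.5 FPKM, with ranges that overlapped from each to the next. In WT the order of these was Cdkn1a at 31.8, Ccnd2 at 29.5 and Cdkn1b at 27.9 FPKM, and the ranges of Ccnd2 and Cdkn1b overlapped. Cdk6 stood above Cdkn2c in NICD2, at 18.7 and 12.6 FPKM, and below it in WT, at 7.82 and 10.4 FPKM. Cdkn2b and Cdkn2a were lowest in both groups.

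The profile of Ccnd1 over the 6 libraries, centred on its mean, was compared with 10261 genes of at least 5 FPKM outside the 10 members. The closest of these were Tnfaip2, Hey2, Adamts16, Oxtr and Cobl, with root-mean-square differences of 0.101 to 0.131 on the log2 scale, where the median gene differed by 0.613. Tnfaip2 held 50.5, 47.4 and 46.2 FPKM in NICD2 and 22.1, 22.2 and 19.8 FPKM in WT. Hey2 held 8.56, 9.37 and 9.19 FPKM in NICD2 and 4.10, 4.06 and 3.72 FPKM in WT. Among the other members, Cdk6 was closest to Ccnd1, closer than any of those genes, with a difference of 0.0542, and Cdkn2a and Cdkn2b followed at 0.128 and 0.148. Cdkn2a and Cdkn2b lie under the 5 FPKM asked of the compared genes, and the added 1 FPKM compresses their steps. With 0.1 FPKM added, their log2 fold changes were 2.93 and 1.98, against 1.21 for Ccnd1, so their closeness depends on that choice. This likeness is a description that rests on 6 libraries and on the step between the groups.

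Promoters of 3 of the 4 genes that rose could be read from RefSeq (GRCm38.p6), whose table held 12 promoters of 8 of the 10 genes. The 250 bases before each annotated start are shown in the direction of transcription, because these promoters belong to genes that were called higher in NICD2. Capitals mark the motifs searched. For Cdk6 this is chr5:3343643-3343892 on the plus strand, before a start that lies inside the gene span given above, which begins at 3341471. No promoter before that outer position was held for Cdk6. For Cdkn2b it is chr4:89311033-89311282 on the minus strand. For Cdkn2a they are chr4:89294620-89294869, before the outer start that gives p19ARF, and chr4:89282193-89282442, before the inner start that gives p16INK4a, both on the minus strand.
Cdk6: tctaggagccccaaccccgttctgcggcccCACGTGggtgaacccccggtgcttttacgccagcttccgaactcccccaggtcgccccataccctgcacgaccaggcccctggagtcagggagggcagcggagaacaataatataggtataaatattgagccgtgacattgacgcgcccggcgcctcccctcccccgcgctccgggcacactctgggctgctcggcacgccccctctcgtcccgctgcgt
Cdkn2b: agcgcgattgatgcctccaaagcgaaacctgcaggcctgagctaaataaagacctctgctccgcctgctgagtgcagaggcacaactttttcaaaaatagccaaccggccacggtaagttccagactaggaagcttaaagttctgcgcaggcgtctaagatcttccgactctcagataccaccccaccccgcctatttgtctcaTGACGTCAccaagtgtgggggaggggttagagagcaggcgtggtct
Cdkn2a, outer start: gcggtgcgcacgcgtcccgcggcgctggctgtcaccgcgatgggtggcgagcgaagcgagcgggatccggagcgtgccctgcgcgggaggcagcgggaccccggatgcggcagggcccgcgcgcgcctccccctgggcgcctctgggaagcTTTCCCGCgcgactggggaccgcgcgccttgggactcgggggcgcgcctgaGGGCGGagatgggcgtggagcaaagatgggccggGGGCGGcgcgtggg
Cdkn2a, inner start: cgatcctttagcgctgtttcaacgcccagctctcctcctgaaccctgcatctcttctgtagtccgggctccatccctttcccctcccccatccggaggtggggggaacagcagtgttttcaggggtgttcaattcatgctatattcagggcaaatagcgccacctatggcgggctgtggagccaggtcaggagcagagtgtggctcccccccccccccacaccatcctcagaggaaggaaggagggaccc

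Each promoter was searched on both strands, from 250 bases before to 50 after the start, for GTGGGAA (bound by RBPJ, the DNA-binding partner of Notch), TTTCCCGC and TTTGGCGC (E2F), GGGCGG (GC box), CACGTG (E box), TGACTCA (AP-1), TGACGTCA (CRE) and CTTTGA (TCF/LEF). None of the words overlaps another in the sequences shown. The RBPJ word was in none of the 12 promoters and in 6.38% of all 32851 promoters in the table, which says only that these letters are not in these windows. An E2F word was found in 1 of the 12, the outer Cdkn2a promoter, at position -99 from the start, and in 1.56% of all promoters. The outer Cdkn2a promoter also held 3 GC boxes, 1 of them after the start and so not shown, a motif in 35.7% of all promoters. GC boxes were found as well for Cdkn2b and the inner Cdkn2a promoter, both after the start. Among genes that were not called, Ccnd3, Cdk4, Cdkn1a, Cdkn1b and Cdkn2c held them too. Cdkn2b held a CRE at -46, found in 1.79% of all promoters. Cdk6 held an E box at -220, as did 7.15% of all promoters at any place, and Cdk4, which was not called, held 4 of them.

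Of 25 genes that E2F factors switch on for DNA replication, 17 were called higher and none lower, where 4.93% of all genes were called higher. This list and those below were chosen with earlier results of these data known, so their counts are descriptions and not tests. The median log2 fold change of the list was 0.37, against -0.01 over all genes. Tyms, Tk1 and Slbp were among the 8 that were not called, and Tyms had a log2 fold change of 0.00 (limma adjusted p = 0.994). Gmnn, the licensing inhibitor geminin, held 41.4, 39.9 and 29.8 FPKM in NICD2 and 18.0, 14.4 and 17.4 FPKM in WT (log2 fold change 1.1 ± 0.13, limma adjusted p = 0.00149). Its NICD2 values were all above the WT ones, with replicate 3 the lowest of them. Gins2, of the replicative helicase, averaged 21.0 ± 2.07 FPKM in NICD2 and 12.8 ± 1.01 FPKM in WT (SD, n = 3 each; limma adjusted p = 0.00269). The ribonucleotide reductase subunit Rrm2 averaged 39.0 ± 3.25 FPKM in NICD2 and 26.7 ± 1.49 FPKM in WT (limma adjusted p = 0.00430). The helicase subunit Mcm6 averaged 55.5 ± 2.10 FPKM in NICD2 and 42.5 ± 1.21 FPKM in WT (limma adjusted p = 0.00588). The summed level of the list was 736, 782 and 651 FPKM in NICD2 and 564, 508 and 543 FPKM in WT. The count called was 7 without WT replicate 2, 10 without NICD2 replicate 1, 11 without NICD2 replicate 2 and 20 without NICD2 replicate 3, when 2.82%, 3.17%, 3.42% and 4.28% of all genes were called higher.

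Of 13 E2F factors and pocket proteins tested, Rbl1 (p107, a relative of the retinoblastoma protein) and the repressor E2f8 were called higher and none lower. The median was 0.13, and 4.93% of all genes were called higher. Rbl1 averaged 13.0 ± 1.05 FPKM in NICD2 and 9.43 ± 1.48 FPKM in WT (limma adjusted p = 0.0437), and E2f8 averaged 9.79 ± 1.34 FPKM in NICD2 and 7.22 ± 0.343 FPKM in WT (limma adjusted p = 0.0467). Each kept its call in 5 of the 12 alternatives, with adjusted p up to 0.152 and 0.153. E2f1 and E2f3, which activate transcription, were not called, at 8.68 and 8.90 FPKM in NICD2 and 6.40 and 7.31 FPKM in WT (limma adjusted p = 0.0603 and 0.0847).

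Of 8 other G1/S cyclins, kinases and activators, limma called none, with 4 higher and 0 lower at an unadjusted p under 0.05 (12.4% higher and 12.6% lower over all genes) and a median of 0.20. Ccna2, cyclin A2 of S and G2 phase, averaged 47.2 ± 6.01 FPKM in NICD2 and 35.4 ± 3.68 FPKM in WT (limma adjusted p = 0.0536). Ccnh was at 18.8 FPKM in NICD2 and 16.1 FPKM in WT, Cdc25a at 10.6 FPKM in NICD2 and 8.81 FPKM in WT, and Ccne2 at 3.48 FPKM in NICD2 and 2.58 FPKM in WT. Of 21 mitotic genes, 1 was called higher and 0 lower, a share near that of all genes. At an unadjusted p under 0.05, 15 were higher and 0 lower, where 12.4% of all genes were higher, and the median was 0.28. The count called was 0 without NICD2 replicate 1, NICD2 replicate 2 or WT replicate 2, 2 without NICD2 replicate 3 and 4 without WT replicate 1. In these fits, in that order, 3.17%, 3.42%, 2.82%, 4.28% and 4.12% of all genes were called higher. The one called was Cdk1, the mitotic kinase, at 22.6 ± 2.18 FPKM in NICD2 and 16.3 ± 2.02 FPKM in WT (limma adjusted p = 0.0328, up to 0.103 over the alternatives). Ccnb1, Ccnb2 and Cdc20 were not called, at 21.8, 36.9 and 30.2 FPKM in NICD2 and 16.6, 28.2 and 23.5 FPKM in WT.

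The remaining CDK inhibitors were not called. Cdkn1c (p57) averaged 236 ± 36.3 FPKM in NICD2 and 277 ± 14.6 FPKM in WT (limma adjusted p = 0.221), a level above that of the other inhibitors, and its NICD2 values of 196 to 266 FPKM lay below the WT values of 269 to 294 FPKM. Cdkn2d (p19INK4d) averaged 9.37 ± 0.505 FPKM in NICD2 and 9.73 ± 1.99 FPKM in WT (limma adjusted p = 0.904). No gene of this pair had an unadjusted p under 0.05 in limma.

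**Figure D4:**
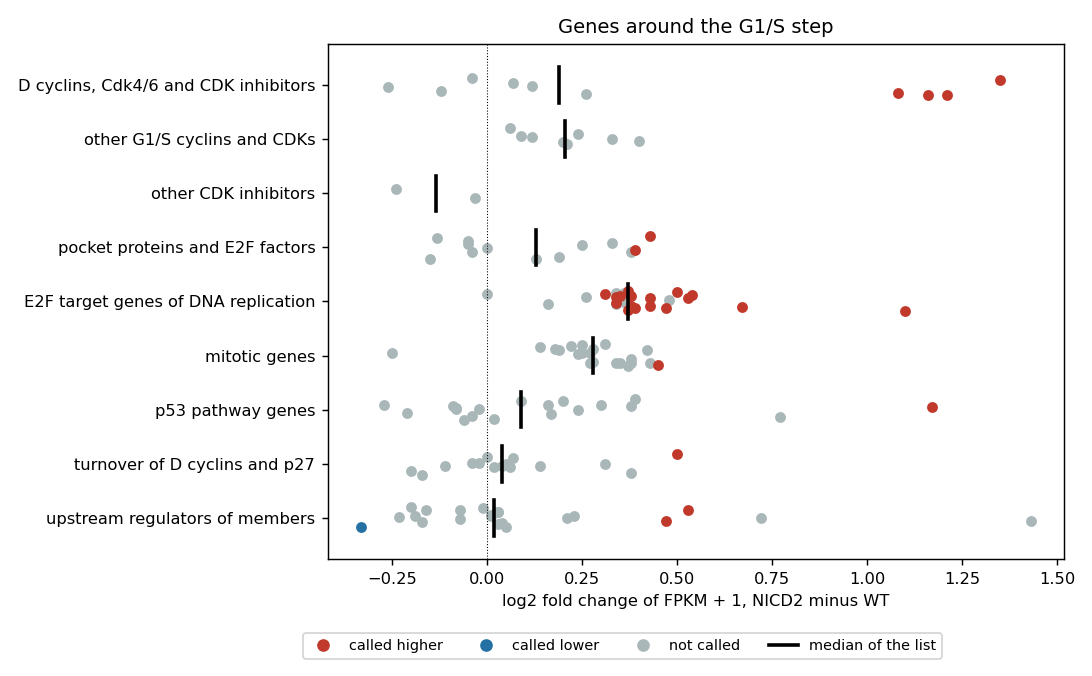
Log2 fold change of FPKM + 1, NICD2 minus WT, for each tested gene of the lists around the G1/S step (points, spread vertically for legibility), with the median of each list as a bar. In the E2F target list 17 of 25 genes are called higher, while the members fall into 4 called genes above 1 and 6 that are not called.

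The p53 list, of which Cdkn1a is a known target outside the list, had Perp called higher and none lower of 19 tested, with a median of 0.09. This share is near the 4.93% of all genes that were called higher. Perp, a tetraspan membrane protein that is also part of desmosomes, averaged 42.6 ± 6.67 FPKM in NICD2 and 18.2 ± 0.181 FPKM in WT (limma adjusted p = 3.41e-04). Gdf15, Aen and Ccng1 were not called, at 6.55, 15 and 22.1 FPKM in NICD2 and 3.48, 12 and 18.6 FPKM in WT. Of 15 genes for turnover of D cyclins and p27, only Dtl, a substrate receptor of a ubiquitin ligase that also acts on p21, was called, at 12.5 ± 1.40 FPKM in NICD2 and 8.53 ± 0.528 FPKM in WT (limma adjusted p = 0.0114). It missed the threshold without WT replicate 2 (limma adjusted p = 0.0533). The share called in this list was also near that of all genes called higher. Skp2, which marks p27 for destruction, and its cofactor Cks1b were not called, at 8.27 and 58.9 FPKM in NICD2 and 6.47 and 45.2 FPKM in WT. Gsk3b, a kinase that marks cyclin D1 for export and breakdown, was not called either, at 21.7 FPKM in NICD2 and 25 FPKM in WT.

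Of 22 genes known to act on the transcription of the members, Myc and Id1 were called higher and Foxo1 lower, with a median of 0.02. Over all genes tested, 4.93% were called higher and 3.86% lower. Myc held 16.0, 15.9 and 14.7 FPKM in NICD2 and 10.8, 10.2 and 11.9 FPKM in WT (log2 fold change 0.47 ± 0.07, limma adjusted p = 0.00659). Id1 averaged 86.2 ± 12.1 FPKM in NICD2 and 59.6 ± 9.05 FPKM in WT (limma adjusted p = 0.0377), and Foxo1 averaged 11 ± 0.631 FPKM in NICD2 and 14.1 ± 1.15 FPKM in WT (limma adjusted p = 0.0375). Adjusted p reached 0.128 for Id1 and 0.142 for Foxo1 over the alternatives. Stat3 was not called, at 27 FPKM in NICD2 and 22.9 FPKM in WT.

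Cell-type markers moved between the groups as well, where 4.93% of all genes tested were called higher and 3.86% lower. Of 10 intercalated-cell markers 9 were called lower and 0 higher, and their sum was 44.0 to 53.1 FPKM in NICD2 and 180 to 183 FPKM in WT. Of 9 podocyte markers 8 were called lower and 0 higher, with sums of 282 to 302 FPKM in NICD2 and 391 to 437 FPKM in WT. Principal-cell markers had 1 higher and 5 lower of 8, with sums of 201 to 242 FPKM in NICD2 and 375 to 403 FPKM in WT. Of the nephron progenitor markers 2 of 7 were lower and 0 higher, with sums of 63.3 to 71.4 FPKM in NICD2 and 88.0 to 96.4 FPKM in WT. Endothelial markers had 3 of 8 lower and 0 higher, with sums of 357 to 373 FPKM in NICD2 and 412 to 468 FPKM in WT. Urothelial and squamous markers had 2 of 9 higher and 4 lower, with sums of 48.9 to 84.2 FPKM in NICD2 and 77.7 to 162 FPKM in WT. Immune markers had 1 of 7 higher and 0 lower, with sums of 55.2 to 71.4 FPKM in NICD2 and 42.3 to 63.1 FPKM in WT. No marker in these lists was at 0 in every library, and their part in the values of the cyclins, kinases and inhibitors was not tested.

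Log2 fold changes by DEGseq in the authors' deposited table were 1.22 for Ccnd1, 1.26 for Cdk6, 2.07 for Cdkn2b and 3.74 for Cdkn2a. In the authors' deposited table the q was under 0.05 for every member but Ccnd3 (q = 0.0553), including Ccnd2 at a log2 fold change of -0.12 and Cdk4 at 0.07. That threshold was met by 48.9% of the 18725 genes with a q in the authors' deposited table.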

How the data were processed

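Per the labels' protocols, Trizol RNA of frozen kidneys (1 ug of total RNA a library) went into an Illumina TruSeq preparation. The FPKM were computed by the authors and deposited to 2 decimals, per the file headers. The log2 fold change and q-value of the authors' DEGseq comparison and the longest transcript length, another deposited value, come from the same table. Bowtie 0.12.2 and the build mm8 are named in the submitters' processing notes, while the table's chromosome accessions are those of GRCm38. For the FPKM program, strand and shared reads, details were not given in the sources used here.

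Of 23669 rows, 4010 held no FPKM and were left out, and 1 repeated symbol was dropped. A set of 27 columns comparing single samples was not used. Depth was estimated from the steps between low FPKM, with 110 bases taken off each transcript length. At the best depth 79.2% to 83.3% of low values lay within 0.15 fragments of a whole number, where 30% do by chance. Fragment numbers given for genes are therefore estimates, and roughest for genes with several transcripts.

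limma 3.58.1 (R 4.3.3) was run with a mean-variance trend on log2(FPKM + 1) for all 6 libraries, two-sided, and checked on simulated data. Tables and figures used Python 3.11.15 with pandas 2.3.3 and matplotlib 3.10.9. Alternatives were 0.1 FPKM added, no filter, a filter at 5 FPKM, median-ratio and upper-quartile scaling, a block on replicate number, and fits lacking 1 library. The scaled fits and the fits lacking 1 library kept the genes that had passed the filter in the main fit. The members and lists were chosen with earlier results of these data known. All 10 members were named, with up to 4 genes of smallest p from each of 8 lists and the 5 genes most like Ccnd1.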

Additional observations from a re-analysis of the deposited data

How the results depend on the processing

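Ccnd1, Cdk6, Cdkn2a and Cdkn2b were called under every one of the 12 alternatives in which they were tested. Their log2 fold changes ran from 1.16 to 1.25, 1.12 to 1.25, 0.99 to 2.93 and 1.28 to 1.98, and the upper ends for the last 2 came from adding 0.1 FPKM. The filter at 5 FPKM removed Cdkn2a and Cdkn2b and left 2 members called. Leaving out a library gave 4 to 5, in fits that did not apply the level filter anew. Leaving out a library moved Cdkn2c from 0.20 to 0.34. Ccnd2 ran from -0.21 to 0.00, where it changed sign without NICD2 replicate 1 (adjusted p = 0.998), and Ccnd3 from -0.13 to 0.05, with a change of sign without WT replicate 1 (adjusted p = 0.747). Neither was called in any fit.

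Over all genes the count called was 1210, and 624 to 985 without a library, of which 388 to 589 were higher and 236 to 411 lower; the lowest counts were 624, 729 and 780 without WT replicate 2, NICD2 replicate 1 and WT replicate 3. In the lists around the G1/S step the count of genes called was 9 to 30 without a library and 16 with no filter on low values. Over all genes, 4.53% to 7.16% were called without a library and 4.55% with no filter. The E2F target list alone had 7 to 20 genes called without a library. Among list genes, Cdkn2d changed sign without NICD2 replicate 3 (0.00) and without WT replicate 1 (0.10), with -0.16 the lowest of these fits. Whether replicate numbers pair the samples is not labelled. Deviations of same-numbered samples correlated at -0.0327, 0.0590 and -0.0453 across genes, and those of differently numbered samples at -0.253 to 0.246. These values cannot show whether same-numbered samples share a litter or batch. With the replicate block 1055 genes were called, and the members called were the same 4, with log2 fold changes as without it. Among the list genes named, E2f8 and Rbl1 lost their calls with the block (adjusted p = 0.0799 and 0.0834), and Gdf15, Ccnb2, Ccnb1 and Cks1b gained one (adjusted p = 0.0190, 0.0279, 0.0370 and 0.0459). Mitotic genes called were 4 with the block and 0 with no filter, where 4.48% and 2.63% of all genes were called higher. Genes near 1 FPKM, such as Cdkn2a in WT at 0 to 2 estimated fragments, are the ones that depth limits most.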

Other observations

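The genes beside Ccnd1 were looked at after the values were seen. Within 200 kb of it, 3 genes were tested and 2 were called higher, Fgf15 and Ano1, where 4.93% of all genes were called higher. Fgf15, a secreted fibroblast growth factor (chromosome 7, 144896532 to 144900953), held 5.07, 4.29 and 2.42 FPKM in NICD2 and 0.22, 0.18 and 0.32 FPKM in WT (limma adjusted p = 6.37e-04). It was hardly present in WT, and its NICD2 level was lowest in replicate 3. It reached the level filter only through the NICD2 libraries, so part of its difference is built into its being tested. The chloride channel Ano1 (144588549 to 144752045) held 28.3, 24.7 and 26.2 FPKM in NICD2 and 15.3, 15.1 and 14.2 FPKM in WT (log2 fold change 0.79 ± 0.07, limma adjusted p = 3.12e-04). Oraov1, which overlaps the end of Ccnd1, was not called. Fgf3 and Fgf4, which lie between these genes, stayed under 1 FPKM in every library.

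Beside Cdkn2a and Cdkn2b, the one other gene tested, Mtap, an enzyme of methionine salvage, held 23.1, 22.7 and 20.4 FPKM in NICD2 and 16.8, 16.9 and 18.4 FPKM in WT (log2 fold change 0.33 ± 0.07, limma adjusted p = 0.0262). Over the 10 genes, 8 of 50 tested neighbours within that distance were called, where 8.79% of all genes were called in either direction. Of these, Tfeb beside Ccnd3 and Cpne5 beside Cdkn1a were lower in NICD2, and the rest were higher.

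Among the genes known to act on the members, Fos and Jun, named after their values were seen, differed most between libraries of a group. Fos held 91.2, 12.1 and 2.11 FPKM in NICD2 and 12.4, 5.12 and 1.32 FPKM in WT (limma adjusted p = 0.467). Jun held 58.8, 26.4 and 20.9 FPKM in NICD2 and 23.3, 18.3 and 15.9 FPKM in WT (limma adjusted p = 0.211). Both genes fell from replicate 1 to replicate 3 in each group, and the source of this shared order was not tested. WT replicate 1, the highest WT library for both, had an interferon response sum of 51.0 FPKM. NICD2 replicate 1, the highest of all libraries for both, also had the highest sum of interferon response genes. The log2 fold changes without it were 1.25 for Ccnd1 and 1.18 for Cdk6.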
